A study of Mus musculus with 20 samples.

Results

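The expression of 10 genes that carry dietary fat through the enterocyte was followed in mouse intestinal tissue: the apolipoproteins Apoa1, Apoa4, Apob and Apoc3, the lipid transfer protein Mttp, the fatty acid binding proteins Fabp1 and Fabp2, the acyltransferases Dgat1 and Mogat2, and the fatty acid receptor Cd36. They were chosen by symbol, out of 25027 gene symbols named on the array, and 15 of the 56605 probes carried one of these symbols. RNA from 20 mice of the C57BL6/j strain was hybridised to 1-colour Agilent arrays, 1 mouse per array, in 2 experiments. In the first, 6 Cre control mice (VillinCreER/0, with a tamoxifen-inducible Cre recombinase driven by the villin promoter of the gut epithelium) were compared with 6 BRAFV600E mice that also carried the inducible BrafV600E-LSL allele. All 12 were 8 to 12 weeks old, received tamoxifen on 3 days and were sampled 3 days later. In the second, 4 mice were given the MEK inhibitor PD184352 (MEKi) and 4 its vehicle on 3 consecutive days after tamoxifen. The labels give no genotype or age for these 8 mice. The study describes the inhibitor as a treatment of its Braf-mutant mice, and the labels of that experiment name no Cre control group. The tissue was labelled only as intestinal, so every array also held RNA of cells in which the villin promoter is silent, and fewer cells of a type cannot be told apart from less RNA per cell.

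Dietary triglyceride is digested in the gut lumen to fatty acids and monoacylglycerol. Enterocytes take these up, carry them in the cytosol bound to fatty acid binding proteins, and rebuild triglyceride at the endoplasmic reticulum, chiefly by the monoacylglycerol pathway of Mogat2 and the diacylglycerol acyltransferases. Mttp then loads the lipid on to Apob, and the particle, a chylomicron, gains Apoa1, Apoa4 and Apoc3 on its surface before it is secreted into lymph. Apoc3 on circulating particles slows the removal of triglyceride by lipoprotein lipase and the liver. Activated BRAF signals through MEK, so the first experiment switches this pathway on in the epithelium and the second blocks it downstream.

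Of the 10 genes, Apoc3 was the only one to pass the test, and it did so in both comparisons. Over all genes tested, 12.4% passed in BRAFV600E tissue and 1.98% under the inhibitor. Of the 18571 genes tested in both, 200 passed in both, each with opposite signs. Apoc3 fell 2.66-fold in BRAFV600E tissue and was 2.53-fold higher with the MEK inhibitor than with vehicle. Under the inhibitor it no longer passed when any single array was left out. Apoa1 and Apoa4, which lie on either side of Apoc3 in the same gene cluster, passed the test in neither comparison. For the 9 genes other than Apoc3, limma's adjusted p was 0.0521 or more in BRAFV600E tissue and 0.328 or more under the inhibitor, against a threshold of 0.05. In BRAFV600E tissue, Cd36 and Fabp2 had the largest differences among those that did not pass.

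The 3 genes of the cluster were read by 5 probes on chromosome 9 (mm9, the build in the file headers). The Apoa1 probe lay at chr9:46037921-46037980 and the Apoa4 probe at chr9:46051206-46051266, both on the plus strand. Between them, on the minus strand, lay the 3 Apoc3 probes, at chr9:46041134-46041193, chr9:46041353-46041412 and chr9:46043606-46043665. In the RefSeq gene table the next gene after Apoa4 is Apoa5. The sequences of 3 of these probes are given because the contrast within the cluster rests on them. They are printed 5′ to 3′ in lower case, with no part marked, and the Apoc3 sequence shown is that of its second brightest probe.
Apoc3: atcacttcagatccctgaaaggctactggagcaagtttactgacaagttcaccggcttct
Apoa1: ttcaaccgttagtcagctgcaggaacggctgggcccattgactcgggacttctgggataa
Apoa4: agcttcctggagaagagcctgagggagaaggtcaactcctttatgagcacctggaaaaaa

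Each value below is a log2 level: the log2 of the spot's processed signal minus the 75th percentile of the array's log2 signals, so a level of 0 is that percentile. Each gene was read by the brightest of its probes over the 20 arrays. That probe was well above background on all 20 arrays for each of the 10 genes, and no spot was saturated on any array, so none of the 10 was lost to the filter on dim probes. On each array, 60.8% to 76.8% of the spots were well above background. Slide 1 held all 6 Cre control and 2 BRAFV600E arrays, slide 2 the other 4 BRAFV600E arrays and slide 3 the inhibitor experiment, with MEKi in one row of the slide and Vehicle in the other, so that row and treatment cannot be told apart. The Y-linked genes were high on 3 of 6 Cre control, 4 of 6 BRAFV600E, 4 of 4 MEKi and 2 of 4 Vehicle arrays. BRAFV600E replicate 2 and Vehicle replicate 2 stood apart. The mean of 8 enterocyte markers unrelated to fat (Vil1, Alpi, Lct, Sis, Anpep, Slc5a1, Krt20, Slc2a2) was 4.01 on the first and 5.26 on the second. It was 5.57 to 6.35 on the other 18 arrays. Not all of the 8 were low. Among mutant arrays the lowest value was -2.23 for Lct and 3.65 for Anpep, but 6.61 for Vil1 and 7.38 for Krt20. Among Vehicle arrays these were 3.70, 4.23, 6.915 and 7.51. The mean of 4 genes of the exocrine pancreas was 7.25 on Vehicle replicate 2 and at most -3.48 elsewhere. The mean of 4 genes of the proximal small intestine (Gata4, Lct, Slc40a1, Cybrd1) was high on the same arrays. It was 4.75 on Vehicle replicate 2 against 1.38 to 1.49 on the other Vehicle arrays. On BRAFV600E replicate 2 it was 3.05, against 1.33 to 2.08 on the other mutant arrays. The 4 genes did not move together. Slc40a1 and Cybrd1 reached 5.497 and 6.295 among Vehicle arrays and 5.005 and 6.475 among mutant arrays. Lct went the other way on these arrays, with the lowest values of its groups, 3.70 and -2.23. Of 4 genes of the distal small intestine (Fabp6, Slc10a2, Slc51b, Fgf15), the mean was 0.98 and 0.97 on Vehicle replicates 1 and 3 and at most -0.29 on the other 18 arrays. The part of the gut region sampled in the differences of the fat absorption genes was not tested.

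In BRAFV600E tissue, 1 of the 10 genes was called lower (adjusted p under 0.05) and 0 were called higher. Over all 19034 genes tested, 12.4% were called, 6.18% higher and 6.26% lower, so the count among the fat absorption genes is near that of the array as a whole. Their median difference was -0.42, with 8 of 10 lower, beside a median of -0.02 over all genes tested. The groups did not overlap for 1 of the 10 genes, Apoc3, and for 7.36% of all genes. Under the MEK inhibitor, 1 of the 10 was called higher and 0 lower. Over the 19224 genes tested there, 1.98% were called, 1.09% higher and 0.884% lower, and the groups did not overlap for 12.2%. The median of the 10 genes was -0.02 against 0.04 for all genes, with 5 higher and 5 lower.

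**Figure D1:**
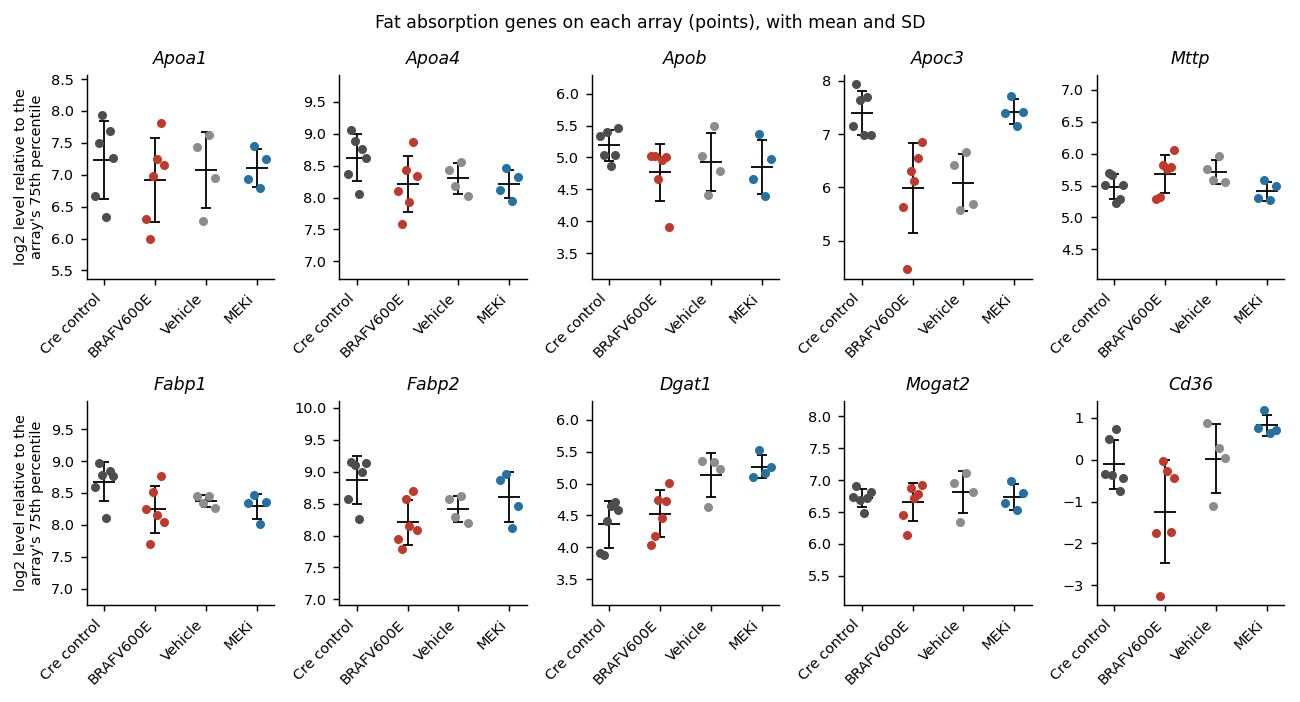
Log2 level relative to the array's 75th percentile (y axis, each panel with its own range) of the 10 genes on every array, with 1 point per mouse and the group mean with its SD in black. For Apoc3 all 6 BRAFV600E points lie below all 6 Cre control points and all 4 MEKi points lie above all 4 Vehicle points. In the other panels the groups overlap.

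Apoc3 ranged from 6.98 to 7.94 on the Cre control arrays, with a median of 7.39, and from 4.46 to 6.85, with a median of 6.21, on the BRAFV600E arrays. The highest mutant mouse lay below the lowest control. The means were 7.40 ± 0.41 and 5.99 ± 0.85 (SD, n = 6 each), a difference of -1.41 (SE 0.35, 95% confidence interval -2.18 to -0.65, limma adjusted p = 0.0233). In the second experiment Apoc3 was 6.41, 5.58, 6.66 and 5.69 on the Vehicle arrays and 7.40, 7.72, 7.16 and 7.42 on the MEKi arrays. Every inhibitor-treated mouse lay above every vehicle-treated one, with means of 7.42 ± 0.23 and 6.09 ± 0.53 (SD, n = 4 each) and a difference of 1.34 (SE 0.27, interval 0.73 to 1.95, limma adjusted p = 0.0489). The 2 experiments share no arrays and were run on different slides.

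**Figure D2:**
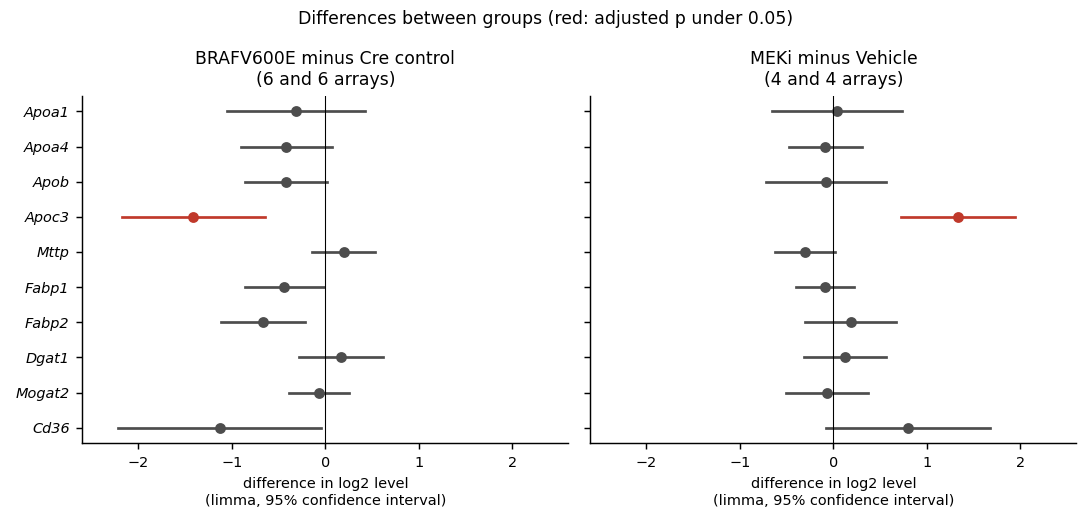
Difference in log2 level (x axis) for each of the 10 genes in BRAFV600E against Cre control tissue (left) and in MEKi against Vehicle tissue (right), as points with unadjusted 95% confidence intervals from limma. Apoc3, in red, is the single gene with an adjusted p under 0.05 in either panel, and the intervals of Apoa1 and Apoa4 include 0 in both.

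Markers of crypt and secretory cells differed, by the median of each list, in the same directions as Apoc3 in both experiments. Of 4 Paneth cell markers, 3 were called lower in BRAFV600E tissue and 0 higher (median difference -1.82), and their mean ran from 3.66 to 5.85 on mutant and from 6.23 to 6.75 on control arrays. Of 5 crypt stem cell markers 3 were called lower and 0 higher (median -0.72), and of 5 goblet cell markers 2 lower and 1 higher (median -0.78). Of 4 enteroendocrine and 3 tuft cell markers, 1 each was called lower and 0 higher (medians -0.53 and -0.62). In each list but that of Paneth cells, 1 marker was higher in the mutant: Smoc2, Agr2, Tph1 and Pou2f3. Under the inhibitor 1 of the crypt stem cell markers was called higher, and 0 of the Paneth and goblet cell markers were called. The median differences were 0.47, 0.81 and 0.71. The enteroendocrine and tuft medians were 0.25 and 0.43, with 0 called. Over all genes tested, 6.26% were called lower in the mutant and 1.09% higher under the inhibitor. Of the 8 enterocyte markers, 1 was called higher and 0 lower in the mutant (median -0.077), and 0 were called under the inhibitor. The part of cell composition in the Apoc3 differences was not tested.

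The call of Apoc3 in BRAFV600E tissue was lost without Cre control replicate 2 (adjusted p = 0.0519) or Cre control replicate 3 (0.0528), with the difference at -1.30 and -1.36. It was also lost without scaling between arrays (-0.60, adjusted p = 0.155, where the median of all genes was 0.79), on the 5 arrays whose spike-in slope was in range (-1.99, adjusted p = 0.143) and on the arrays with high Y-linked levels (-1.76, adjusted p = 0.117). The range set for the spike-in slope was 0.9 to 1.2. The slope was recorded as 0 on the 4 BRAFV600E arrays of slide 2, and was 0.76 to 0.84 on Cre control replicates 2, 3 and 5. Over the 14 alternatives other than leaving out an array the adjusted p of Apoc3 ran from 0.00237 to 0.155. Within slide 1 the difference was -2.35 (adjusted p = 0.0153), where it rests on BRAFV600E replicates 1 and 2, at 5.64 and 4.46. Without BRAFV600E replicate 2, the array with the low mean of the enterocyte list, the call held (-1.11, adjusted p = 0.0201). The 4 mutant arrays of slide 2 lay between 6.12 and 6.85, also below every control. Under the inhibitor the call was the weaker of the pair: leaving out any single array ended it (differences 1.17 to 1.53, adjusted p = 0.0522 to 0.146), and among the arrays with high Y-linked levels, all 4 MEKi and Vehicle replicates 1 and 3, the difference was 0.89 (adjusted p = 0.129).

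The second Apoc3 probe, whose sequence is printed above, gave nearly the same differences, -1.45 in BRAFV600E tissue (SE 0.35, limma adjusted p over all probes = 0.0256) and 1.30 under the inhibitor (SE 0.26, adjusted p = 0.0735). On it the ranges were 3.23 to 5.74 in mutant and 5.79 to 6.67 in control mice, again without overlap. The third probe reads transcript NM_001289756, a variant of the gene. Its level ranged from -0.97 to -0.01 in mutant mice and from -0.83 to 0.14 in controls, which overlap, and it differed by -0.30 (SE 0.21, adjusted p = 0.392) in the first experiment and by 0.28 (SE 0.23, adjusted p = 0.681) in the second. The difference therefore passed the test on neither side for this variant probe, which was bright enough to be well above background on all 20 arrays.

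Apoa1, the main protein of high-density lipoprotein and an early coat protein of the chylomicron, ranged from 6.34 to 7.94 (median 7.38) in Cre control and from 5.999 to 7.81 (median 7.07) in BRAFV600E tissue. The 2 groups covered nearly the same range, and the difference was -0.32 (SE 0.34, interval -1.05 to 0.42, adjusted p = 0.575). Under the inhibitor it was 6.93, 7.45, 6.78 and 7.26 against 7.44, 6.28, 7.62 and 6.95 with vehicle, a difference of 0.03 (interval -0.66 to 0.73, adjusted p = 0.970).

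Apoa4, an intestinal apolipoprotein made in response to fat, ranged from 8.06 to 9.07 (median 8.70) in control and from 7.59 to 8.87 (median 8.22) in mutant tissue. The difference was -0.42 (SE 0.23, interval -0.91 to 0.07, adjusted p = 0.233). With the inhibitor it was 8.12, 8.46, 7.95 and 8.32 and with vehicle 8.44, 8.18, 8.56 and 8.02, a difference of -0.09 (interval -0.48 to 0.30, adjusted p = 0.861). Apoa5, the fourth gene of the cluster, was well above background on all 6 Cre control and 4 MEKi arrays. It was so on 2 of 6 BRAFV600E and 1 of 4 Vehicle arrays, so its differences are set in part by background. They had the directions of Apoc3, at -1.09 in BRAFV600E tissue (limma adjusted p = 0.102) and 0.28 under the inhibitor (adjusted p = 0.752). The first was the lowest in the list of chylomicron assembly and export genes below. Apoa5 was called in neither comparison.

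To compare the changes of genes directly, the level of Apoc3 minus that of each other gene was taken on each array, which removes the scaling of the array, and this quantity was compared between groups with an exact two-sided permutation test over mice. Apoc3 was picked for this after its values had been seen, so the p-values do not allow for that choice. They were adjusted over the 18 pairs. The 9 pairs of a comparison contain the same Apoc3 values and are not independent, so their number adds little to the change of Apoc3 itself. Relative to Apoa1, Apoc3 fell by 1.097 in BRAFV600E tissue (exact p = 0.00216, adjusted 0.00974), and relative to Apoa4 by 0.99 (exact p = 0.00433, adjusted 0.0156). For Apoa1 the groups did not overlap but nearly touched, with the highest mutant value of this within-array difference at -0.31 and the lowest control value at -0.30. Without any single mouse the shift stayed between -1.22 and -0.98 for Apoa1 and between -1.14 and -0.81 for Apoa4, and within slide 1 it was -1.27 and -1.57. In all, 6 of the 9 comparisons passed at an adjusted p under 0.05 in BRAFV600E tissue, those with Apoa1, Apoa4, Mttp (-1.61), Fabp1 (-0.97), Dgat1 (-1.58) and Mogat2 (-1.34). Those with Apob (-0.99, adjusted p = 0.0998), Fabp2 (-0.75, adjusted p = 0.0546) and Cd36 (-0.28, adjusted p = 0.535) did not.

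Under the MEK inhibitor, Apoc3 rose by 1.302 relative to Apoa1 and by 1.42 relative to Apoa4, and 8 of the 9 comparisons had no overlap between the 4 MEKi and 4 Vehicle arrays, with shifts from 1.15 to 1.64. Each of these had an exact p of 0.0286, the smallest that 4 against 4 can give, and an adjusted p of 0.0367. Apoc3 by itself did not overlap between these groups, so the 8 are not separate results. Pairs of other genes were not compared. The exception among the 9 was Cd36, relative to which Apoc3 shifted by 0.54 (exact p = 0.143, adjusted 0.151). In BRAFV600E tissue the pairs with Apob and Fabp2 had not passed either.

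**Figure D3:**
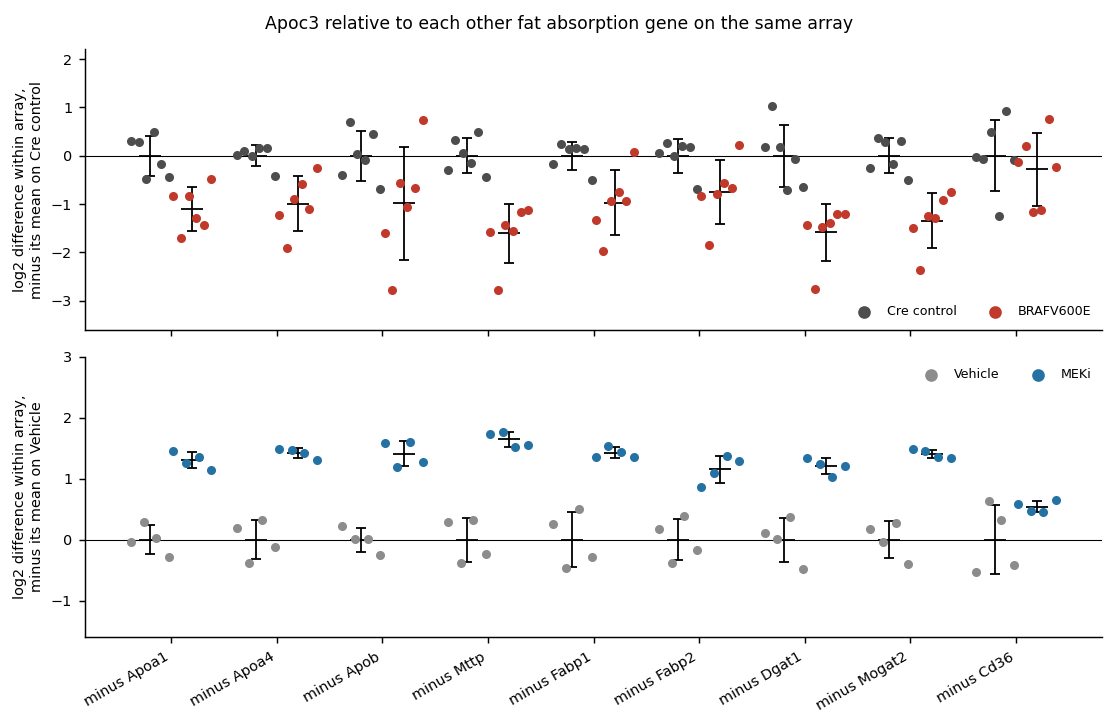
Log2 level of Apoc3 minus that of each other gene on the same array, shown relative to the mean of the Cre control arrays (top) or of the Vehicle arrays (bottom), with 1 point per mouse and the group mean with its SD in black. The BRAFV600E points lie mostly below 0, by 0.97 to 1.61 on average for 7 of the genes, by 0.75 for Fabp2 and by 0.28 for Cd36, while the MEKi points lie above all Vehicle points for every gene but Cd36.

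Apob, the structural protein around which each chylomicron is built, ranged from 4.87 to 5.47 (median 5.19) in control and from 3.91 to 5.03 (median 4.99) in mutant tissue. A single mouse, BRAFV600E replicate 6, set the lower end at 3.91, and the other 5 lay between 4.66 and 5.03. The difference was -0.43 (SE 0.20, adjusted p = 0.179), and -0.18 (adjusted p = 0.716) on the second Apob probe. The inhibitor and vehicle arrays differed by -0.08 (SE 0.28, adjusted p = 0.932).

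Mttp, which transfers lipid to nascent Apob, differed by 0.20 in BRAFV600E tissue (SE 0.16, interval -0.15 to 0.54, adjusted p = 0.436), from a control range of 5.23 to 5.70 to a mutant range of 5.30 to 6.06. Under the inhibitor it was 5.30, 5.58, 5.27 and 5.49 against 5.75, 5.59, 5.97 and 5.55, a difference of -0.31 (SE 0.14, interval -0.63 to 0.01, adjusted p = 0.328). The direction in the first experiment was not stable: within slide 1 it was -0.17. A second Mttp probe was well above background on 14 of the 20 arrays and gave no call. In BRAFV600E tissue it differed by -0.17 (SE 0.25, limma adjusted p over all probes = 0.704), opposite in sign to the first probe. Under the inhibitor it differed by -0.70 (SE 0.88, adjusted p = 0.809).

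Fabp2, the intestinal fatty acid binding protein, had the smallest adjusted p after Apoc3. It ranged from 8.26 to 9.16 (median 9.05) in control and from 7.78 to 8.69 (median 8.12) in mutant tissue, a difference of -0.67 (SE 0.21, interval -1.11 to -0.22, adjusted p = 0.0521). Of the 6 Cre control mice, 4 lay above every mutant mouse. The call turned on the processing: the adjusted p was under 0.05 in 5 of the 14 alternatives to the main setting, among them a background correction with normexp (-0.60, 0.0295) and slide as a block (-1.01, 0.0399), and over all 14 it ran from 0.0258 to 0.962. With quantile normalization the difference was 0.01, and without scaling 0.14. Under the inhibitor it was 8.87, 8.96, 8.12 and 8.46 against 8.57, 8.30, 8.61 and 8.20, with a difference of 0.18 (SE 0.21, adjusted p = 0.738).

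Fabp1, the liver-type binding protein that enterocytes also make, differed by -0.44 in BRAFV600E tissue (SE 0.20, adjusted p = 0.152), from 8.11 to 8.97 in control and 7.70 to 8.77 in mutant mice, and by -0.09 under the inhibitor (SE 0.13, adjusted p = 0.819). Like Fabp2 and Apoa4 it was among the brightest spots on the array, with unscaled processed signals of 228800 to 430200 over the 20 arrays. All 3 turned from lower to higher in BRAFV600E tissue with quantile normalization, where Apoa4 was 0.17 (adjusted p = 0.379) and Fabp1 0.16 (adjusted p = 0.278). Without scaling they were at 0.14 to 0.39, below the median of 0.79 for all genes. Apoc3 and Cd36 were lower in the mutant under each of the 14 alternatives and without any single array.

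The enzymes that rebuild triglyceride passed the test in neither experiment. Mogat2, which acylates monoacylglycerol, ranged from 6.48 to 6.91 in control and from 6.15 to 6.93 in mutant mice and differed by -0.07 (SE 0.15, interval -0.39 to 0.25, adjusted p = 0.793) and, with the inhibitor, by -0.07 (SE 0.19, adjusted p = 0.907). Its dimmer second probe differed by 0.58 in BRAFV600E tissue (SE 0.28, adjusted p = 0.206), so the probes disagreed in sign. Dgat1, which adds the last fatty acid, differed by 0.17 (SE 0.21, interval -0.29 to 0.62, adjusted p = 0.635) and by 0.13 (SE 0.19, adjusted p = 0.812), and within slide 1 by -0.25.

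Cd36, a receptor for long-chain fatty acids on enterocytes, adipocytes, macrophages and capillaries, had the second largest difference in both experiments and passed the test in neither. It ranged from -0.74 to 0.73 (median -0.35) in control and from -3.25 to -0.03 (median -1.08) in mutant tissue, a difference of -1.13 (SE 0.50, interval -2.22 to -0.04, adjusted p = 0.150). The mutant mice split: replicates 1, 2 and 5 lay at -1.74, -3.25 and -1.72, below all controls, and the other 3 between -0.43 and -0.03. Within slide 1, where replicates 1 and 2 are the mutant mice, the difference was -2.38 (adjusted p = 0.0391), and with slide as a block it was called as well (adjusted p = 0.0190); over the 14 alternatives the adjusted p reached 0.622. With the inhibitor it was 0.76, 1.18, 0.64 and 0.71 and with vehicle 0.88, -1.10, 0.29 and 0.05, a difference of 0.80 (SE 0.38, interval -0.08 to 1.68, adjusted p = 0.355) that dropped to 0.42 without Vehicle replicate 2.

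Of 4 adipocyte markers, Adipoq, Plin1 and Cfd differed in the same directions as Cd36 in both experiments, and Lep in the opposite ones, by 0.29 in BRAFV600E tissue (adjusted p = 0.247) and by -0.15 under the inhibitor (adjusted p = 0.665). The mean of the 4 lay between -2.58 and 0.54 on Cre control, between -5.27 and -0.42 on BRAFV600E, between -4.87 and -1.03 on Vehicle and between -1.46 and 0.20 on MEKi arrays. Of these 4 markers, 1 was called lower in BRAFV600E tissue (Plin1, adjusted p = 0.0222, well above background on 4 of the 6 mutant arrays) and 0 were called under the inhibitor. Cfd, an adipocyte-secreted protease, was well above background on all Cre control and MEKi arrays, where it ranged from -0.60 to 5.27 and from 1.82 to 4.76. It was so on 4 of 6 BRAFV600E and 2 of 4 Vehicle arrays, with ranges of -7.90 to 3.398 and -6.98 to 2.57, so the size of its differences is set in part by background. Adipoq was well above background on 3 of 6 BRAFV600E and 1 of 4 Vehicle arrays, and the mean of the 4 markers carries the same limit. Cfd and Cd36 did not move together on every array: BRAFV600E replicate 4 had Cfd at -7.77, not well above background, and Cd36 at -0.28. Of 3 endothelial markers 0 were called in either comparison. The part of adipose RNA in the Cd36 differences was not tested.

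**Figure D4:**
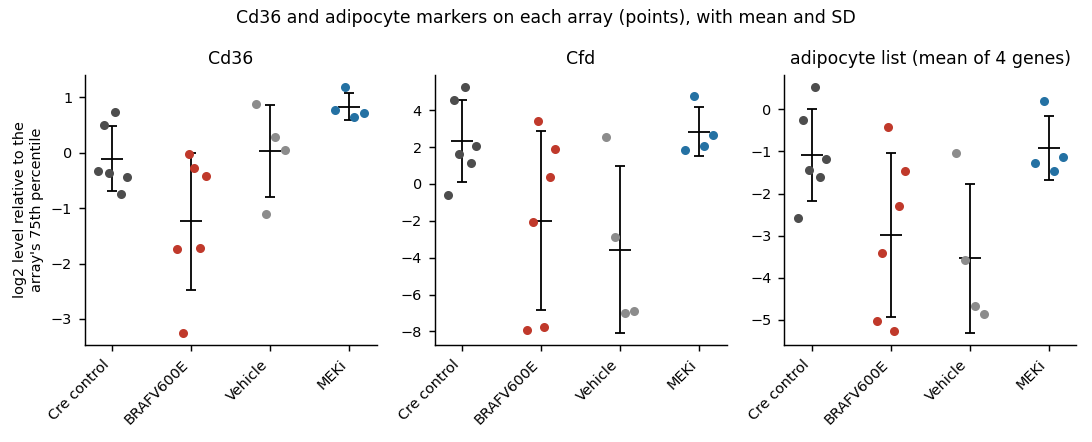
Log2 level relative to the array's 75th percentile (y axes with different ranges) of Cd36, the adipocyte gene Cfd and the mean of 4 adipocyte markers on each array, with 1 point per mouse and the group mean with its SD in black. Group means of all 3 are lower in BRAFV600E than in Cre control and higher in MEKi than in Vehicle tissue, with wide spread in the BRAFV600E and Vehicle groups, where Cfd was not well above background on 2 arrays each.

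The machinery around these genes was described with 43 further genes in 4 lists. Of the 43, 8 were called higher and 0 lower in BRAFV600E tissue, and 0 higher and 3 lower under the inhibitor, beside 6.18% higher and 0.884% lower over all genes tested. The counts in each list below stand beside the same shares and were not tested against them. Among 7 genes of lipid uptake and activation (median difference 0.55), 2 were called higher in the mutant: Acsl3, which activates long-chain fatty acids to acyl-CoA, and Got2, a mitochondrial aminotransferase also described as a fatty acid binding protein of the plasma membrane (0.59, SE 0.14, adjusted p = 0.0210). Acsl3 ranged from -1.94 to -0.84 in control and from 0.62 to 1.28 in mutant mice, a difference of 2.21 (SE 0.18, adjusted p = 2.5e-05), and no mouse overlapped. With the inhibitor it fell by 1.87 (SE 0.26, adjusted p = 0.0159), again without overlap. Npc1l1, the cholesterol importer, had the lowest difference of the list in the mutant (-0.59, adjusted p = 0.148), with 0.79 under the inhibitor (adjusted p = 0.298).

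Of 13 genes of triglyceride resynthesis and lipid droplets (median 0.22), 2 were called higher in BRAFV600E tissue. These were Lpin2, a phosphatidate phosphatase of the glycerol phosphate pathway (0.88, SE 0.21, adjusted p = 0.0191), and Plin2, a lipid droplet coat protein (0.63, SE 0.19, adjusted p = 0.0478). Lpin2 fell by 0.94 with the inhibitor (SE 0.17, adjusted p = 0.0389), where the groups did not overlap. Mgll, which cleaves monoacylglycerol, had the lowest difference of the list in the mutant, at -0.81 (adjusted p = 0.164), and the highest under the inhibitor, at 0.39 (adjusted p = 0.615). Dgat2, the second diacylglycerol acyltransferase, differed by 0.13 (adjusted p = 0.761) and by -0.49 (adjusted p = 0.355).

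Of 15 genes of chylomicron assembly and export (median 0.24), 2 were called higher in BRAFV600E tissue: Apom, an apolipoprotein of high-density lipoprotein (1.38, SE 0.39, adjusted p = 0.0363), and Mia2, an endoplasmic reticulum exit factor for large cargo (0.57, SE 0.15, adjusted p = 0.0309). Apom was dim, and its control range of -6.40 to -3.82 included 1 mouse not well above background, far below the other 5. Sar1b, the small GTPase that buds chylomicron carriers from the endoplasmic reticulum, fell by 0.59 with the inhibitor (SE 0.10, adjusted p = 0.0342), and in the mutant it was 0.35 higher without passing the test (adjusted p = 0.153). The surface apolipoproteins Apoc2, the activator of lipoprotein lipase, and Apoe differed by -0.17 (adjusted p = 0.639) and -0.49 (adjusted p = 0.373) in the mutant.

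Of 8 regulators of these genes (median 0.33), Hnf4a, a nuclear receptor of enterocytes and hepatocytes (0.60, SE 0.18, adjusted p = 0.0485), and Gata4, a factor of the proximal small intestine (0.49, SE 0.13, adjusted p = 0.0334), were called higher in BRAFV600E tissue, and 0 of 8 were called under the inhibitor. Creb3l3, a membrane-bound factor that responds to lipid, differed by 0.59 (SE 0.26, adjusted p = 0.150) and by -0.46 (SE 0.19, adjusted p = 0.276). Cdx2 had the lowest difference of the list in the mutant, at -0.20 (adjusted p = 0.618), and the highest under the inhibitor, at 0.36 (adjusted p = 0.503). The levels of the 4 lists are relative to the array's 75th percentile, as for the 10 genes.

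Of the 43 pathway genes, 38 had opposite signs in the 2 experiments (88.4%), 29 of them higher in the mutant and lower with the inhibitor. The share was 5 of 10 among the fat absorption genes, with Mttp higher then lower and Apoa1, Apoc3, Fabp2 and Cd36 lower then higher, and 70.2% over the 18571 genes tested in both.

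**Figure D5:**
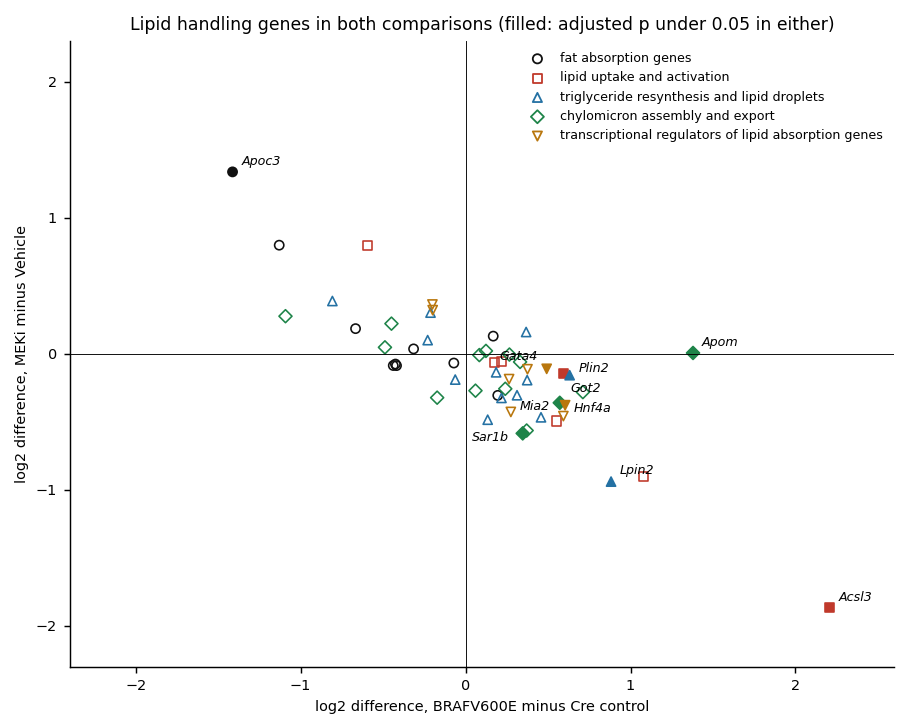
Log2 difference in BRAFV600E against Cre control tissue (x axis) and in MEKi against Vehicle tissue (y axis) for the 10 fat absorption genes and 43 further lipid handling genes, with the marker giving the list and filled, named markers those with an adjusted p under 0.05 in either comparison. Apoc3 lies farthest to the upper left, Acsl3 and Lpin2 in the lower right, and most of the other fat absorption genes near the centre.

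The genes whose pattern over arrays was most like that of Apoc3 differed between the experiments. Over the 12 arrays of the first, the 5 highest Pearson correlations were with Ano2 (0.977), Fbln1 (0.976), Tmem219 (0.974), Bdkrb2 (0.970) and Cnnm2 (0.970), each of which was called lower in BRAFV600E tissue. Over the 8 arrays of the second they were with Mok (0.991), Naprt (0.990), Msra (0.989), Ihh (0.989) and Rfng (0.981), and 0 of these 5 were called. The arrays of a comparison share slides and the group difference, so these values describe likeness over few points.

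Promoter windows of 300 bases around the start site were held by RefSeq's table (GRCm38.p6) for 7 of the 10 genes: Apoa1, Apoa4, Apob, Mttp, Fabp1, Fabp2 and Cd36. They were searched on both strands for 8 short motifs. The Fabp1 window held 3 copies of the CDX letters TTTATNG, 1 of the HNF1 letters GTTAAT and 2 of the nuclear receptor hexamer AGGTCA. The CDX letters also stood once in the windows of Apob and Fabp2, making 3 of 7, and in 10.9% of all 32851 windows. The hexamer stood in the Cd36 window as well, making 2 of 7 against 16.3% of all windows, and the HNF1 letters stood in 7.1% of all. The letters searched for HNF4 (CAAAGTCCA), GATA factors (AGATAA), CRE (TGACGTCA), ETS (CCGGAAGT) and AP-1 (TGANTCA) stood in 0 of the 7 windows, and in 0.47%, 11.2%, 1.79%, 3.89% and 7.81% of all.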

How the data were processed

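The authors hybridised Cy3-labelled RNA to Agilent SurePrint G3 Mouse arrays and deposited 1 scanner file per array. Per the labels, Agilent Feature Extraction 10.5.1.1 made the deposited intensity values (processed, mean and background signal). The methods name limma and give no normalization. Here, log2 of the processed intensity minus each array's 75th percentile was used. Control spots and outlier flags were left out, spots of a probe were averaged, and the brightest probe stood for a gene. Of 56605 probes, 44334 were named through RefSeq accessions or symbols. Genes entered a test if 6 or more of the 12 arrays, or 4 or more of the 8, had the probe flagged well above background. Each experiment was fitted alone with limma 3.58.1 (R 4.3.3), and p-values were adjusted by Benjamini-Hochberg over all genes tested, with 0.05 as the threshold. The code was tested on simulated data. Exact permutation tests used scipy.

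The 10 genes, the lists and the motifs were chosen with earlier results of these data known. Named were all 10 genes with every probe, the pathway genes called or with the largest and smallest difference, and the 5 genes most like Apoc3. Dgat2, Apoc2 and Apoe were added for their roles after their values were seen. Replicate numbers follow the order of deposit and pair nothing. Array number and signal over background limit the precision. The treatment text in the labels describes a statin experiment, fits none of the 4 groups and was not used. The study's methods state equal numbers of each sex in the first experiment. The Y-linked genes were high on 3 of 6 Cre control but 4 of 6 BRAFV600E arrays, which differs from that statement. They were also unevenly spread in the second, with 4 of 4 MEKi and 2 of 4 Vehicle arrays high. The series' value table matched the processed signals and was not used further.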

Additional observations from a re-analysis of the deposited data

Results flagged for a closer look

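Within groups of 4 to 6 arrays, 52 sets of values were examined for a single array far from the others, by the gap to its neighbour over the range of the group, which chance alone passes in about 1 of 20 sets. Of 40 sets for the 10 fat absorption genes, 1 was marked: Apob at 3.91 on BRAFV600E replicate 6. The other 3 were means of marker lists. The enterocyte markers outside lipid handling averaged 4.01 on BRAFV600E replicate 2 and 5.26 on Vehicle replicate 2, and the exocrine pancreas markers averaged 7.25 on Vehicle replicate 2. Apoc3 was the lowest of its group on the same 2 arrays, at 4.46 and 5.58, and so were Apoa1, Mogat2 and Cd36. Apoa4, Fabp1 and Fabp2 were also lowest on BRAFV600E replicate 2, and Apob and Dgat1 on Vehicle replicate 2. Mttp was lowest on neither. Without BRAFV600E replicate 2 the Apoc3 difference was -1.11 (adjusted p = 0.0201), and without Vehicle replicate 2 it was 1.17 (adjusted p = 0.0737).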

How the results depend on the processing

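The count of genes called in BRAFV600E tissue (2368) became 4639 with normexp background correction (1589 higher, 3050 lower), 9334 without scaling (9157 higher, 177 lower), 3591 over every probe, 3747 with array weights, 1535 with slide as a block, 734 within slide 1, 29 on arrays with spike-in slope in range and 413 on arrays with high Y-linked levels, an alternative chosen after seeing the data. Leaving out 1 array gave 1441 to 2858. Of the 10 fat absorption genes (1 called), 2 were called with normexp, with a probe well above background on every array, with array weights, with all 20 arrays in 1 fit and within slide 1, all lower. Without scaling it was 3, all higher (Mttp, Dgat1 and Mogat2, not Apoc3), and with slide as a block 3, all lower (Apoc3, Fabp2 and Cd36). It was 0 with spike-in slope in range and with high Y-linked levels. Without 1 array it was 0 to 2.

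Under the inhibitor, 380 genes became 74 without scaling, 234 without a filter, 53 with the Y-linked level as a covariate, 1219 with array weights, 78 with high Y-linked levels and 76 to 376 without 1 array. The call of Apoc3 was lost, leaving 0 of 10, in 7 alternatives: without scaling, without a filter, with the mean over probes, over every probe, with the Y-linked covariate, with all 20 arrays and with high Y-linked levels. It was lost too without any 1 array (0 to 0). Its adjusted p ran from 0.0233 to 0.129 over the 11 alternatives that keep all or several arrays, and the cause was not tested.

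These differences turned sign in BRAFV600E tissue. With quantile normalization Apoa4 was 0.17, Fabp1 0.16, Fabp2 0.0099 and Mttp -0.085. Without scaling Apoa1 was 0.49, Apoa4 0.39, Apob 0.38, Fabp1 0.37, Fabp2 0.14 and Mogat2 0.74. With the mean over probes Mogat2 was 0.25. Mttp and Dgat1 were -0.17 and -0.25 with slide as a block and within slide 1, and -0.10 and -0.27 with spike-in slope in range. Mttp was -0.000136 with high Y-linked levels. Without 1 array Mogat2 ran from -0.13 to 0.030. Under the inhibitor Apob was 0.024 and Mogat2 0.029 with quantile normalization, Apoa1 -0.43 and Dgat1 -0.083 with the Y-linked covariate, -0.21 and -0.046 with array weights, and -0.42 and -0.080 with high Y-linked levels. Without 1 array Apoa1 ran from -0.23 to 0.22, Apob from -0.25 to 0.11, Fabp1 from -0.14 to 0.0077, Mogat2 from -0.22 to 0.034 and Dgat1 from -0.040 to 0.20. None of these was called in the main setting. Relative to the other genes, Apoc3 moved the same way in all 18 pairs with its second probe, and 1 more pair passed, that with Fabp2 (-0.78, adjusted p = 0.0343 by the exact permutation test). No paired analysis was possible because the labels carry no replicate numbers.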
